A study of Homo sapiens with 2 samples.

Results

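The genes that move zinc into and out of the cytosol and the small proteins that bind it there were compared between 2 RNA-seq libraries of RKO, a human colorectal carcinoma cell line. The siHNRNPM library came from cells transfected with siRNA against HNRNPM, an RNA-binding protein of pre-mRNA splicing, and the control library from cells transfected with the control siRNA siNC. The labels give the genotypes as HNRNPM knockdown and WT. There was 1 library of each, of total RNA from whole cultures, so no difference below could be set against the spread between cultures and no p-value is given. The genes were chosen by symbol: all SLC30A and SLC39A genes, all MT1 genes with a single letter, MT2A, MTF1 and MTF2. The rule gave 36 of the 54261 features in the table, made up of 10 SLC30, 14 SLC39 and 10 metallothionein genes with MTF1 and MTF2.

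Free zinc in the cytosol is held very low. Most SLC30 proteins (ZnT) export zinc from the cytosol, either out of the cell or into organelles and vesicles. SLC39 proteins (ZIP) bring zinc into the cytosol from outside or from organelles. Metallothioneins are short, cysteine-rich proteins that bind zinc and copper, and MTF1 is the zinc-sensing transcription factor that drives the metallothionein genes and the exporter gene SLC30A1 through metal response elements in their promoters.

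The metallothionein genes sit together on chromosome 16 and are close copies of each other, which bears on how far reads can be told apart. The coding sequences of the 5 protein-coding metallothionein genes with reads and the matching stretch of the MT1L transcript, each of 186 bases from GENCODE 29, are shown for that reason. Capitals mark the bases that differ from MT1E.
MT1E: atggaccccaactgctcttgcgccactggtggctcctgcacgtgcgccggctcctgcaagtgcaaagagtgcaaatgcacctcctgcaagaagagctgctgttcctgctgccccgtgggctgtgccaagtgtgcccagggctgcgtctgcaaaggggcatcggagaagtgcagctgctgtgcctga
MT1L: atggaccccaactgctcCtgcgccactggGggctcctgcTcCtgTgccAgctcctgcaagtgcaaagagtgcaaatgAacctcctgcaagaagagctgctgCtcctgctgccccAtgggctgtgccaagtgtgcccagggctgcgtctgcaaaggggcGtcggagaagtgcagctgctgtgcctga
MT1F: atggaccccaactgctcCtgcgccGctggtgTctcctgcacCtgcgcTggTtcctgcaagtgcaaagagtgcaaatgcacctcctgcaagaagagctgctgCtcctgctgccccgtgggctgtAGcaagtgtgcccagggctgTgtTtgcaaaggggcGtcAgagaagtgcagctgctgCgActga
MT1M: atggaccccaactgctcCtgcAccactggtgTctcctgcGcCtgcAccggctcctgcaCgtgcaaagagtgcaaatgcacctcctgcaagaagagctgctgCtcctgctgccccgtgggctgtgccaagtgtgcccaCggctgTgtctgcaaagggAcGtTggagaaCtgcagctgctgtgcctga
MT1X: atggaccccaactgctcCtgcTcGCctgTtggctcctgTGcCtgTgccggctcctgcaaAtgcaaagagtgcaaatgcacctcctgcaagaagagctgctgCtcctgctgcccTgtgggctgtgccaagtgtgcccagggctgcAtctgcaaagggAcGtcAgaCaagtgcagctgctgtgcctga
MT2A: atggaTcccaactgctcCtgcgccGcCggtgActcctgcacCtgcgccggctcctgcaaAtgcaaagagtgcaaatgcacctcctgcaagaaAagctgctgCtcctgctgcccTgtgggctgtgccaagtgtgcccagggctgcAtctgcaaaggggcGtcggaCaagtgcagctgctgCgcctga
MT1L was the closest to MT1E, with 176 of 186 bases the same (94.6%), and the other 4 shared 90.9% to 92.5% with it. MT1E, MT1F, MT1M, MT1X and MT2A each hold 20 cysteine codons in 61 codons before the stop. In the MT1L stretch the first stop codon is codon 26, and both GENCODE and RefSeq list MT1L as a transcribed pseudogene. Over whole annotated transcripts the copies are less alike: of the distinct windows of 50 bases, 4.19% of those of MT1E, 5.38% of MT1M, 3.37% of MT1X, 1.58% of MT2A, 1.22% of MT1F and 0% of MT1L also occur in another metallothionein gene of the set. How the authors assigned reads that match several copies is not given in the sources used here, so the values of single MT1 genes are uncertain.

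Promoter sequences from RefSeq (GRCh38.p14) were matched for 27 of the 36 genes. They were searched on both strands for the core of the metal response element, TGCACNC or TGCGCNC. Capitals mark the matches in the promoters of the 3 genes with reads that are best known as MTF1 targets.
MT2A promoter, chr16:56608334-56608633, plus strand: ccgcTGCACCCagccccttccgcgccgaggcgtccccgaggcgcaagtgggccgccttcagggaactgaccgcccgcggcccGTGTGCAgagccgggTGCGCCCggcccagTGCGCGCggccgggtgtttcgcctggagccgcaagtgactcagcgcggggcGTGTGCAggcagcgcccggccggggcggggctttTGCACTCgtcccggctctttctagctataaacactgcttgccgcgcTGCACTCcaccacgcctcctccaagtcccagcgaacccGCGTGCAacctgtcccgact
MT1X promoter, chr16:56682220-56682519, plus strand: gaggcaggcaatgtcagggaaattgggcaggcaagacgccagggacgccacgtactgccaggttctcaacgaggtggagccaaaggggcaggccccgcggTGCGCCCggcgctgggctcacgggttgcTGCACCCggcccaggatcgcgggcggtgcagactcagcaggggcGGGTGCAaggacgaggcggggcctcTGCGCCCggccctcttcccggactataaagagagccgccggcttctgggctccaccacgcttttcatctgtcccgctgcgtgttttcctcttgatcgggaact
SLC30A1 promoter, chr1:211579112-211579411, minus strand: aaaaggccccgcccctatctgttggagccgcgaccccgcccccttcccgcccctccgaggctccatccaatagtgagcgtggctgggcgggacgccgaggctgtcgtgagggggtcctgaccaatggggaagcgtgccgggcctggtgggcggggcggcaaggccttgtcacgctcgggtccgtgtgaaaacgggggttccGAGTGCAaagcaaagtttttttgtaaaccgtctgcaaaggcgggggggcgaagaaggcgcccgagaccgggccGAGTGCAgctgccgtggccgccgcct
The MT2A promoter held 8 matches, the MT1X promoter 4 and the SLC30A1 promoter 2, on either strand and with no overlap between them. At least 1 match was present in 29.6% of all 35116 promoters of the same length and 3 or more in 2.30%. The promoters of MT1B and MT1H held 3 and 8 matches, and neither gene had a read in these cells. None was found in the MTF1 promoter.

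Of the 36 genes, 24 were measured, meaning that they reached a CPM (read counts relative to the scaled size of the library) of 1 in either library. All 24 passed that level in both libraries, the lowest at 4.17 CPM, so no gene passed the filter through 1 library alone. Another 10 were at 0 in both libraries, which at this depth, for those other than SLC39A7, allows a level of up to 0.229 CPM in siHNRNPM cells and 0.151 CPM in control cells (the level of 3 reads). SLC39A2 had 0 reads in the siHNRNPM library and 1 in the control library, and SLC39A5 had 2 in the siHNRNPM library and 4 in the control library. The 10 genes without reads were MT1A, MT1B, MT1G, MT1H, SLC30A2, SLC30A3, SLC30A8, SLC30A10, SLC39A7 and SLC39A12. Several of these have roles in specialised cells: SLC30A3 loads zinc into synaptic vesicles, SLC30A8 into insulin granules, SLC30A2 into secretory vesicles, and SLC30A10 exports manganese.

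SLC39A7, which releases zinc from the endoplasmic reticulum and Golgi, is only listed at 0. It lies in the extended major histocompatibility region on chromosome 6 (33200445 to 33204439, GRCh38), and GENCODE lists further transcripts of it outside the primary assembly. The same is true of all 11 other protein-coding genes within 100 kb, and 10 of these were also at 0 in both libraries. They include RPS18, a ribosomal protein gene that dividing cells use. The listed 0 therefore gives no level for SLC39A7.

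HNRNPM itself had 1042 reads in the siHNRNPM library and 2870 in the control library, a level of 55.2% of control with a 95% counting interval of 51.3% to 59.2%. In all, 13056118 reads were counted for siHNRNPM cells and 19931360 for control cells. Every interval here covers counting error only. Among colorectal epithelial markers, 4 of 10 were measured, with log2 ratios of 0.32 for KRT8, 0.06 for KRT18, 0.36 for EPCAM and -0.40 for CDX2. KRT20, CDX1 and LGR5 were at 0 in both libraries, KRT19 had 1 read in each, CDH1 had 1 in the siHNRNPM library and 10 in the control library, and VIL1 had 0 in the siHNRNPM library and 1 in the control library. Of 12 markers of blood, endothelial and stromal cells, 11 had at most 21 reads in a library, and CD68, a lysosomal glycoprotein gene read in many cell lines, had 11579 reads in the siHNRNPM library and 15206 in the control library. Of 17 hepatocyte genes, 12 had a read in the siHNRNPM library and 6 in the control library. Their reads summed to 466 in the siHNRNPM library and 21 in the control library, with AFP at 174 against 1, ALB at 77 against 0 and SERPINA1 at 177 against 6, while APOA1, TTR, FGG, RBP4 and HP were at 0 in both. Hepatocytes also express metallothionein and zinc transporter genes, and the part of these reads in the results below was not tested. In RNA from whole cultures, fewer cells of a type and less RNA per cell cannot be told apart.

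**Figure D1:**
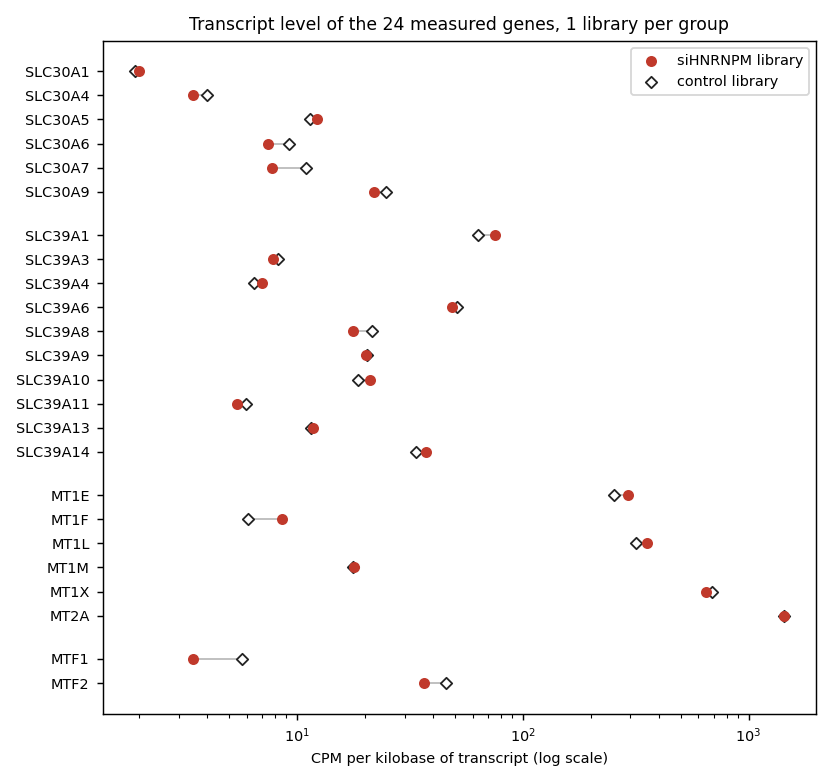
Transcript level of the 24 measured genes in CPM per kilobase of the longest annotated transcript, on a log axis, with red circles for the siHNRNPM library and open diamonds for the control library. MT2A is the highest in both libraries (1435 and 1434), and the largest gap between the symbols among the transporter genes and regulators is at MTF1 (3.46 against 5.75).

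The gene furthest from equal levels was the zinc sensor MTF1. MTF1 (chromosome 1, 37809567 to 37859620, minus strand) had 361 reads, or 27.6 CPM, in the siHNRNPM library, against 911 reads, or 45.8 CPM, in the control library. Its level was 60.2% of control, a log2 ratio of -0.73 with an interval of -0.91 to -0.55. MTF1 was thus lower in the siHNRNPM library by less than 2-fold. Among the 6623 features with 1000 or more reads over both libraries, its ratio was the 49th lowest, outside their central 95% of -0.54 to 0.44. Among all 12925 measured features it lay inside the central 95%, which ran from -0.87 to 1.03. MTF2, which encodes a Polycomb-like subunit of the PRC2 histone methyltransferase despite its name, had 1983 reads (152 CPM) in the siHNRNPM library against 3757 reads (189 CPM) in the control library. Its log2 ratio was -0.32 (-0.40 to -0.24), the 712th lowest of the same 6623 features. The quotient of MTF1 reads over MTF2 reads, which does not depend on scaling, was 0.182 in the siHNRNPM library and 0.242 in the control library.

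Among the genes that MTF1 is known to drive, MT2A, MT1X and SLC30A1 had nearly equal levels in the 2 libraries, while MT1E and MT1F, described next, were higher in the siHNRNPM library. MT2A, the most abundant metallothionein, had 14764 reads (1128 CPM) in the siHNRNPM library and 22415 reads (1127 CPM) in the control library. Its log2 ratio was 0.00 (-0.03 to 0.03), and a difference larger than 0.03 in either direction is outside that interval. MT1X had 4578 reads (350 CPM) in the siHNRNPM library and 7399 reads (372 CPM) in the control library, a log2 ratio of -0.09 (-0.14 to -0.04). Exon sequence of MT1X overlaps another gene on the same strand. SLC30A1, the exporter of the plasma membrane and the only SLC30 member whose promoter is printed above, had 143 reads (10.9 CPM) in the siHNRNPM library and 209 reads (10.5 CPM) in the control library. Its log2 ratio was 0.06 (-0.26 to 0.37). Relative to all metallothionein reads, MTF1 reads were at 0.0149 in the siHNRNPM library and 0.0250 in the control library.

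The other metallothionein genes lay at or slightly above the control level. MT1E had 2779 reads (212 CPM) in the siHNRNPM library and 3678 reads (185 CPM) in the control library, a log2 ratio of 0.20 (0.13 to 0.27). The pseudogene MT1L, its closest copy in the sequences above, had 1913 reads (146 CPM) in the siHNRNPM library and 2584 reads (130 CPM) in the control library, a ratio of 0.17 (0.08 to 0.26). MT1F had the highest ratio of all 24 genes, 0.51 (0.05 to 0.98), from only 78 reads in the siHNRNPM library and 83 in the control library. MT1M had 194 reads in the siHNRNPM library and 293 in the control library, with an interval of -0.26 to 0.28. Of the 6 measured metallothionein genes, the interval of 3 lay above a ratio of 1, that of MT1X below it, and those of MT2A and MT1M spanned it. Over all 12925 measured features, 22.0% had an interval above a ratio of 1 and 26.1% below it. Summed over the family, 24306 reads (1857 CPM) in the siHNRNPM library stood against 36452 reads (1833 CPM) in the control library, a log2 ratio of 0.02 (-0.005 to 0.042). The sum was at 0.051 (0.027 to 0.074) with upper-quartile scaling, 0.026 (0.0022 to 0.049) with total-count scaling and 0.035 (0.0089 to 0.061) with the control library thinned to the depth of the other, so whether the sum exceeded counting error depended on these choices.

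The make-up of the metallothionein pool was close in both libraries. MT2A took 60.7% of the family's reads in the siHNRNPM library (exact binomial interval 60.1% to 61.4%) and 61.5% in the control library (61.0% to 62.0%). MT1X took 18.8% in the siHNRNPM library and 20.3% in the control library, and MT1E took 11.4% in the siHNRNPM library and 10.1% in the control library. MT1E reads per MT1X read were 0.607 in the siHNRNPM library and 0.497 in the control library, a quotient of 1.22 (1.15 to 1.30) that needs no scaling. Per kilobase of transcript, the levels in the siHNRNPM library were 1435 CPM for MT2A, 650 for MT1X, 356 for MT1L, 291 for MT1E, 17.9 for MT1M and 8.64 for MT1F. In the control library they were 1434, 692, 316, 254, 17.8 and 6.05 CPM per kilobase for the same genes. The order of the 6 genes was the same in both libraries.

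**Figure D2:**
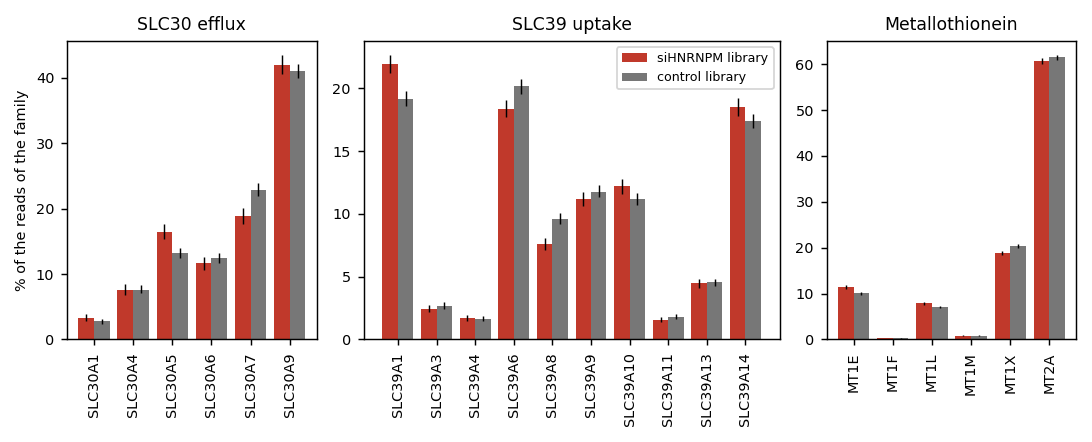
Percent of each family's reads taken by each measured member, with red bars for the siHNRNPM library on the left and grey bars for the control library on the right of each pair. Error bars are 95% exact binomial intervals, and the clearest shifts are SLC30A7 (18.9% against 22.9%), SLC30A5 (16.5% against 13.2%) and SLC39A1 (21.9% against 19.2%).

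The SLC30 genes were lower as a sum in the siHNRNPM library. Their reads summed to 4267 in the siHNRNPM library, or 326 CPM, against 7490 in the control library, or 377 CPM, a log2 ratio of -0.21 (-0.26 to -0.15). Of the 6 measured genes, 4 had an interval below a ratio of 1, none above it, and those of SLC30A1 and SLC30A5 spanned it, where 26.1% of all measured features, and 34.5% of those with 1000 or more reads, lay below. The median log2 ratio of the 6 was -0.19, against -0.01 over all measured features. The quartiles of all measured features were -0.21 and 0.18, so single features with ratios of this size are common.

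SLC30A7, a zinc carrier of the Golgi that supplies secreted and membrane enzymes such as alkaline phosphatases, was the lowest of the transporters. It had 806 reads (61.6 CPM) in the siHNRNPM library and 1717 reads (86.4 CPM) in the control library, a level of 71.3% of control and a log2 ratio of -0.49 (-0.61 to -0.37). SLC30A5 and SLC30A6 encode the partners of a heterodimer of the early secretory pathway that supplies the same enzymes. SLC30A6 had 497 reads (38.0 CPM) in the siHNRNPM library and 930 reads (46.8 CPM) in the control library, a ratio of -0.30 (-0.46 to -0.14). SLC30A5 had 704 reads (53.8 CPM) in the siHNRNPM library and 989 reads (49.7 CPM) in the control library, a ratio of 0.11 (-0.03 to 0.25), which lay above a ratio of 1 with upper-quartile scaling. The partners thus differed from each other: SLC30A5 reads per SLC30A6 read were 1.42 in the siHNRNPM library and 1.06 in the control library, a quotient of 1.33 (1.15 to 1.55). An exon of SLC30A5 overlaps a gene on the opposite strand, and the use of strand in the counts is not stated. SLC30A9, which encodes a zinc transporter of mitochondria, had 1792 reads (137 CPM) in the siHNRNPM library and 3073 reads (155 CPM) in the control library, a ratio of -0.17 (-0.26 to -0.09). SLC30A4, a transporter of endosomes and other vesicles, had 325 reads in the siHNRNPM library and 572 in the control library, a ratio of -0.21 (-0.41 to -0.01). With upper-quartile scaling the interval of SLC30A4 spanned a ratio of 1. Its exons also overlap genes on the opposite strand.

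The SLC39 importers went in both directions and their sum was slightly higher. It came to 12317 reads (941 CPM) in the siHNRNPM library and 17936 reads (902 CPM) in the control library, a log2 ratio of 0.06 (0.03 to 0.09). Without SLC39A1 alone the ratio of the sum was 0.01 (-0.03 to 0.05). Without all members whose exons overlap another gene, SLC39A1 and SLC39A8 among them, it was 0.06 (0.02 to 0.11). SLC39A7, whose listed 0 gives no level, is missing from the sum. Of the 10 measured genes, 3 had an interval above a ratio of 1, SLC39A8 had one below it, and 6 spanned it. Over all measured features, 22.0% lay above and 26.1% below. The median log2 ratio of the 10 genes was 0.01.

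SLC39A1, an importer of the plasma membrane, was the most abundant of the measured SLC39 genes per kilobase. It had 2699 reads (206 CPM) in the siHNRNPM library and 3438 reads (173 CPM) in the control library. Its log2 ratio was 0.25 (0.18 to 0.33), the highest among the transporters, and its exons overlap other genes on both strands. SLC39A10 and SLC39A6 encode closely related importers that can form a complex. SLC39A10 had 1501 reads (115 CPM) in the siHNRNPM library and 2009 reads (101 CPM) in the control library, a ratio of 0.18 (0.09 to 0.28), whereas SLC39A6 had 2264 reads (173 CPM) in the siHNRNPM library and 3615 reads (182 CPM) in the control library, a ratio of -0.07 (-0.15 to 0.0044). With DESeq2 size factors the interval of SLC39A6 lay below a ratio of 1. SLC39A14 and SLC39A8 encode the importers that also carry manganese, iron and cadmium. SLC39A14 had 2278 reads (174 CPM) in the siHNRNPM library and 3117 reads (157 CPM) in the control library, a ratio of 0.15 (0.07 to 0.23). SLC39A8 had 938 reads (71.7 CPM) in the siHNRNPM library and 1721 reads (86.6 CPM) in the control library, a ratio of -0.27 (-0.39 to -0.16). SLC39A8 reads per SLC39A14 read were 0.412 in the siHNRNPM library and 0.552 in the control library, a quotient of 0.746 (0.677 to 0.822). The last pair thus lay on opposite sides of a ratio of 1. Exon sequence of SLC39A8 overlaps another gene on the same strand.

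The remaining SLC39 genes had intervals that spanned a ratio of 1. SLC39A9, of the Golgi and plasma membrane, had 1378 reads in the siHNRNPM library and 2113 in the control library, a log2 ratio of -0.01 (-0.11 to 0.09). SLC39A13, which acts in the secretory pathway, had 550 reads in the siHNRNPM library and 814 in the control library, a ratio of 0.04 (-0.12 to 0.20). SLC39A3, SLC39A11 and SLC39A4 had 302, 195 and 210 reads in the siHNRNPM library, against 484, 326 and 294 in the control library. Their log2 ratios were -0.08, -0.14 and 0.12. SLC39A4 is the importer of dietary zinc in the intestine, and GENCODE lists transcripts of it and of SLC39A11 outside the primary assembly as well. Exon sequence of SLC39A9 and of SLC39A4 overlaps a gene on the opposite strand, and that of SLC39A3 overlaps a gene on the same strand.

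**Figure D3:**
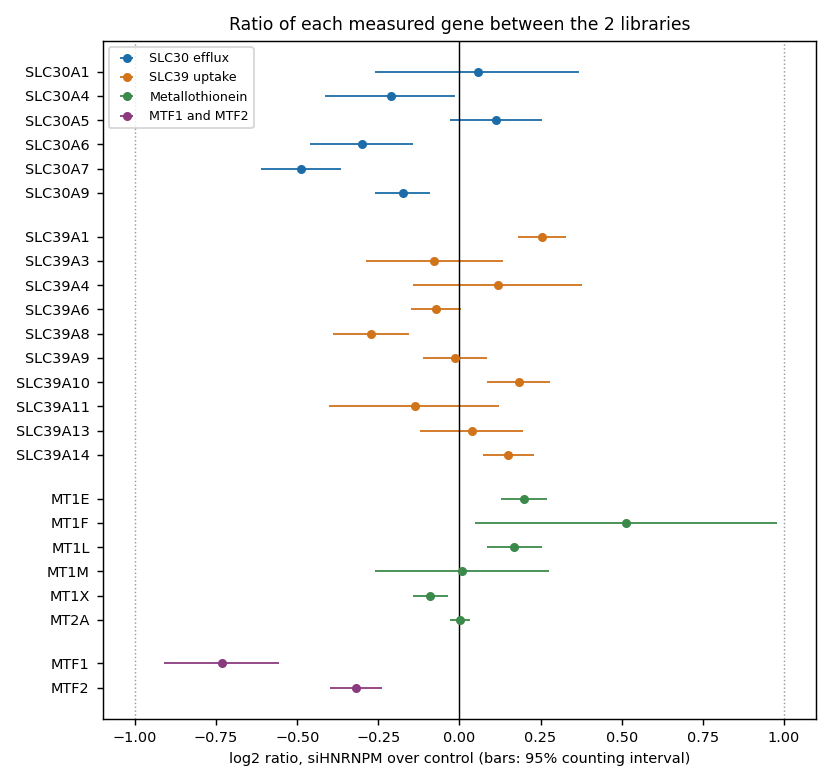
Log2 ratio, siHNRNPM over control, for the 24 measured genes, with 95% counting intervals and dotted lines at 2-fold. MTF1 (-0.73) is the furthest from 0, no gene reaches a dotted line, and 4 of the 6 SLC30 genes lie wholly left of 0.

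The balance between the families was compared within each library, where scaling plays no part. SLC39A7, whose listed 0 gives no level, adds nothing to the SLC39 reads used here. SLC30 reads per SLC39 read were 0.346 in the siHNRNPM library and 0.418 in the control library, a quotient of 0.830 (0.794 to 0.867). SLC30 transcripts as a sum were thus lower relative to SLC39 transcripts in the siHNRNPM library. The quotient was 0.873 (0.832 to 0.916) without SLC30A7, 0.816 without SLC30A9 and 0.859 without SLC39A1. The sum does not stand for export from the cell. The mitochondrial SLC30A9 took 42.0% of SLC30 reads in the siHNRNPM library and 41.0% in the control library. SLC30A1, the exporter of the plasma membrane, had a log2 ratio of 0.06 (-0.26 to 0.37). Against the metallothioneins, SLC30 reads stood at 0.176 in the siHNRNPM library and 0.205 in the control library, a quotient of 0.854 (0.820 to 0.890). Metallothionein reads per SLC39 read were 1.97 in the siHNRNPM library and 2.03 in the control library, a quotient of 0.971 (0.944 to 0.999).

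Over all 24 measured genes, the interval of 6 lay above a ratio of 1, that of 8 below it, and 10 spanned it. Across the 12925 measured features, 22.0% lay above and 26.1% below. Among the 6623 features with 1000 or more reads these shares were 25.4% and 34.5%, since more reads give narrower intervals. The 6 and 8 of 24 are close to these shares, so the counts by themselves do not set the zinc genes apart. None of the 24 was at least 2-fold higher or lower, against 2.45% and 1.49% of all measured features and 0.211% and 0.0604% of those with 1000 or more reads. The median log2 ratio of the 24 was -0.01.

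**Figure D4:**
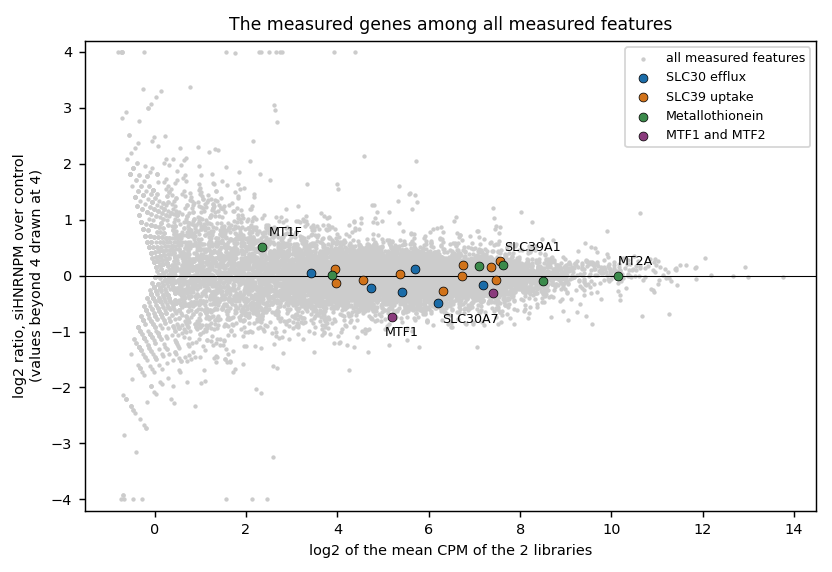
Log2 ratio, siHNRNPM over control, plotted against the log2 mean CPM, with grey points for the 12925 measured features and coloured points for the 24 zinc genes. Most zinc genes sit inside the grey band, and MTF1 (-0.73) is the lowest of them.

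The 3′ untranslated regions were searched for GTGAGAA, the 7-base sequence whose holders had lower ratios in an earlier analysis of these same libraries. It is therefore a description and not independent evidence. Of the genes searched, 1478 held the sequence and had a median log2 ratio of -0.14, and the 8361 without it had a median of -0.01. Among the 23 measured members with an annotated 3′ UTR, 4 held it, with a median of -0.16, against 0.00 for the 19 without it. Length was not taken into account in this comparison. The 3′ UTRs of the 4 holders ran from 2661 bases (SLC39A10) to 6580 bases (SLC30A7). Those of the measured metallothionein genes, all without the sequence, ran from 144 bases (MT1M) to 326 bases (MT1X). The sites in SLC30A7 and SLC30A6, the transporters with the lowest ratios, and those in SLC39A10 and SLC39A9 are shown with 11 bases on each side and the sequence in capitals.
SLC30A7, 3′ UTR position 2254: gtaaaaaattaGTGAGAAaaagcaacttt
SLC30A7, 3′ UTR position 4387: ttacacagaaaGTGAGAAtggggaataac
SLC30A6, 3′ UTR position 1415: tgtgatgaaatGTGAGAAttacatagatt
SLC39A10, 3′ UTR position 1244: gtgaatgatttGTGAGAAgtgcaagccat
SLC39A9, 3′ UTR position 43: tttgccatccaGTGAGAAcagccggcacg
SLC30A7 held 2 sites and the others 1 each. SLC39A10 was higher in the siHNRNPM library and SLC39A9 was equal within counting error, so the holders did not lie on 1 side. MTF1, with the lowest ratio, held none in its 5569 bases.

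The other genes of metal handling gave a mixed picture. Among 12 other genes of zinc handling, 8 were measured, with a median log2 ratio of -0.08. Of these, 1 had an interval below a ratio of 1, none above it, and 7 spanned it. Over all measured features, 26.1% lay below and 22.0% above. The 1 zinc gene below was CBWD5, a member of a family of zinc chaperone GTPases with near-identical copies, at -0.27 (-0.53 to -0.02). MT3, MT4 and TMEM163 were at 0 in both libraries.

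Copper genes lay on both sides. Of 12 measured, 4 had an interval above a ratio of 1 and 4 below it, against 22.0% and 26.1% of all measured features, with a median of 0.06. Named in full after their values were seen, those above were the copper chaperone and cytochrome oxidase assembly genes ATOX1, COX11, COX17 and SCO1, and those below were the transporter genes SLC31A1, ATP7A and ATP7B with SOD1. The copper importer SLC31A1 had 2407 reads (184 CPM) in the siHNRNPM library and 4915 reads (247 CPM) in the control library, a log2 ratio of -0.43 (-0.50 to -0.36). The copper exporter ATP7A had 501 reads in the siHNRNPM library and 968 in the control library, a ratio of -0.35 (-0.51 to -0.19). COX17, a chaperone that brings copper to cytochrome oxidase, had 421 reads in the siHNRNPM library and 480 in the control library, a ratio of 0.41 (0.22 to 0.61).

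Of 15 measured iron genes, 3 lay above a ratio of 1 and 7 below it, beside the same shares of 22.0% and 26.1% over all features, with a median of -0.14. The heme oxygenase gene HMOX1 had 4651 reads (355 CPM) in the siHNRNPM library and 3227 reads (162 CPM) in the control library, a log2 ratio of 1.13 (1.07 to 1.20). It was the only gene of the lists on metal handling and stress to reach 2-fold. SLC11A2, a transporter of iron and other divalent metals, had a ratio of -0.46 (-0.57 to -0.35). ACO1, the cytosolic aconitase that also acts as an iron regulatory protein, had -0.45 (-0.56 to -0.34).

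Of 11 measured genes of metal and oxidant stress, 4 lay above a ratio of 1 and 5 below it, where all features gave 22.0% and 26.1%, with a median of -0.06. HMOX1 belongs to this list as well. TXNRD1, a thioredoxin reductase gene, had 10690 reads (817 CPM) in the siHNRNPM library and 10799 reads (543 CPM) in the control library, a ratio of 0.59 (0.55 to 0.63). SLC7A11, the cystine transporter gene, had 0.47 (0.27 to 0.66). The rest off a ratio of 1 were named after their values were seen. OSGIN1 (0.40) lay above it. HSPH1 (-0.40), GCLC (-0.34), DNAJB1 (-0.21), BAG3 (-0.21) and HSPA8 (-0.13) lay below it. HMOX1 and the metallothionein genes are both known to be induced by cadmium and other metals. In these libraries HMOX1 stood at 1.13, against -0.09 to 0.51 for the 6 measured metallothionein genes. Whether a metal had a part in these ratios was not tested.

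**Figure D5:**
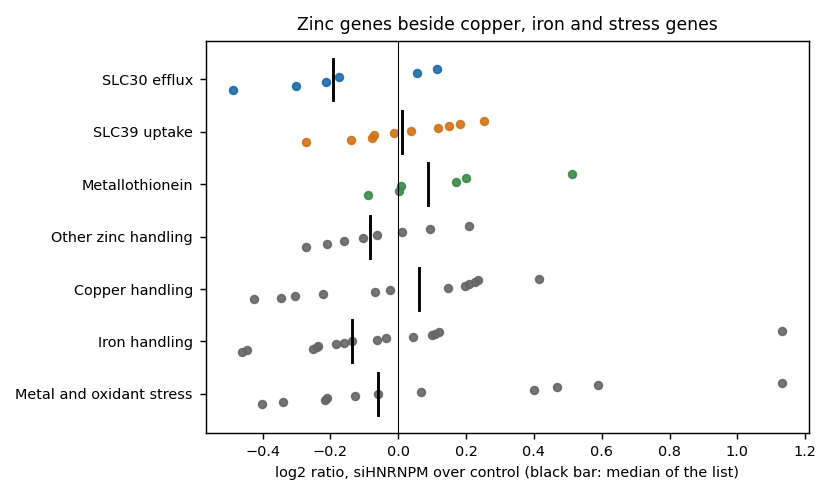
Log2 ratio, siHNRNPM over control, for each measured gene of 7 lists, 1 point per gene, with a black bar at the median of each list. The SLC30 median (-0.19) is the lowest of the 7 and the metallothionein median (0.09) the highest, and the point at 1.13 is HMOX1, which belongs to 2 lists. Without the pseudogene MT1L the metallothionein median was 0.01, below the copper median of 0.06.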

How the data were processed

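RNA-seq of 1 siHNRNPM and 1 control library of RKO cells was analysed, grouped by the treatment labels and tied to the table by title. The authors deposited raw read counts per gene symbol. HISAT2 2.0.4 and GRCh38 appear without a role, per the submitters' processing notes, and the counter, annotation and use of strand are not given in the sources used here.

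Counts were scaled by TMM in edgeR 4.0.16 (R 4.3.3, factors 1.00 and 0.998) to CPM, and features reaching 1 CPM in either library were measured. Log2 ratios are siHNRNPM over control, with 95% Clopper-Pearson intervals of the split of reads (SciPy 1.17.1) and 0.5 in place of a count of 0. Quotients within a library have exact conditional intervals. PCR copies are not independent molecules. Levels per kilobase used the longest protein-coding transcript in GENCODE 29 (the longest of any type for MT1L). The 3′ UTR search covered genes with 100 or more reads and no alternate copy, and the measured members whether or not they have one. The scaling and intervals were tested on simulated counts that held counting error only, as the intervals assume. Spread between cultures and PCR copies were not simulated.

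Members, lists and rules were chosen with earlier results of these data known. All measured members were named, and up to 3 genes per list by largest ratio. Further copper and stress genes were named after their values were seen. Alternatives were other scalings (DESeq2 1.42.0 among them), filters and subsets.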

Additional observations from a re-analysis of the deposited data

How the results depend on the processing

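No paired analysis was possible because each group has 1 library, and for the same reason no library could be left out. The summed ratio of SLC30 genes stayed between -0.27 and -0.18 in every alternative run, reaching -0.27 without members whose exons overlap another gene, an alternative chosen after seeing the data. The summed ratio of SLC39 genes was 0.012 as a median of its members and 0.011 without SLC39A1. It was 0.062 (0.017 to 0.106) without members with overlapping exons, which leaves out SLC39A1 and SLC39A8 as well. The summed ratio of metallothionein genes was 0.051 with upper-quartile scaling, 0.089 as a median, 0.046 without MT2A and 0.0065 without the pseudogene MT1L. It was 0.045 without members with overlapping exons. That last subset left 5 members with an interval below a ratio of 1, against 8. The members lost from that count were MT1X, SLC30A4 and SLC39A8. No member reached 2-fold under any alternative run. Over 4 other scalings or depths, 92 of 96 values of single members stayed on their side of counting error. The exceptions were MT2A (0.03) and SLC30A5 (0.15), which lay above a ratio of 1 with upper-quartile scaling, SLC30A4 (-0.18), which then spanned it, and SLC39A6 (-0.08), which lay below it with DESeq2 size factors. Upper-quartile scaling moved all ratios by 0.03. Depth limits MT1F, SLC30A1 and MT1M most.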
